A study of Homo sapiens with 4 samples.

Results

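The 392 peaks described here lay on the GL contigs of hg19, the pieces of the human assembly that are not placed on a chromosome or are assigned to a chromosome without a position there. They were all unique intervals of the 3 deposited peak lists on sequences named GL and a number, out of 93765 intervals in all. FLI1 gave 226 of them (of 36539), SSRP1 93 (of 19955) and H3K27ac 73 (of 37271). The cells were SK-N-MC, an established Ewing sarcoma line, profiled by chromatin immunoprecipitation and sequencing. All libraries came from this line under a single condition; the labels give no treatment, time or genotype. There was 1 library per target, called by the authors against input. Intervals below are therefore 95% intervals that cover counting error only, and no p-value was computed. The line carries the fusion protein EWS-FLI1, and the labels do not say whether the FLI1 antibody tells it from FLI1. The lists give where each peak lies but neither its height nor the number of reads in it.

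Ribosomal RNA is made by RNA polymerase I from long tandem arrays, in which each unit holds the genes of 18S, 5.8S and 28S rRNA in that order, followed by an intergenic spacer. Active units are largely free of regular nucleosomes, and FACT, the histone chaperone formed by SSRP1 and SUPT16H, is known to take part in transcription by RNA polymerases I and II. H3K27ac marks active promoters and enhancers, and EWS-FLI1 binds ETS sites and runs of the motif GGAA. Other contigs hold satellite repeats and near-copies of chromosomal regions, where short reads can match several places.

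The contig GL000220.1 (161802 bp, unplaced) carried the ribosomal DNA and had the most peaks. Its unit was located by sequence, since no annotation of the contigs was used here. A 153 bp match to pseudogenes of 5.8S rRNA, the 5.8S entries used for the search, lay at GL000220.1:112025-112177 and, identical, at 155997-156149, both on the forward strand. The closest of these GENCODE pseudogenes, RNA5-8SP6, was 94.6% identical over 149 bp, and no functional 5.8S gene was compared. The hairpins of MIR6724 and MIR10396B, a pair of microRNAs, matched exactly upstream of it at 104732-104823 and 108526-108576 and again in the other copy at 148704-148795 and 152498-152548. In RefSeq's gene order MIR6724 lies next upstream of the 45S pre-rRNA gene, and MIR10396B lies inside that gene before 18S. By that order the transcribed unit starts between the 2 hairpins. Its end, where the intergenic spacer begins, was not located, so the repeated stretch and the stretch between its copies are not the unit and its spacer. These anchors are shown because the peaks of the contig are placed relative to them; capitals mark the mature microRNA in the hairpins, and none mark the 5.8S match. All sequences are from the GRCh37 reference (hg19), forward strand unless stated; the microRNA names and mature sequences are RefSeq's (GRCh38.p14).
MIR6724 hairpin, GL000220.1:104732-104823: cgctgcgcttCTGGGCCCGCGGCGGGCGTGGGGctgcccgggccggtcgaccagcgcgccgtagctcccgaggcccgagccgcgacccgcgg
MIR10396B hairpin, GL000220.1:108526-108576: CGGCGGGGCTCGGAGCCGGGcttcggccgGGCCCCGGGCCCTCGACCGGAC
5.8S match, GL000220.1:112025-112177: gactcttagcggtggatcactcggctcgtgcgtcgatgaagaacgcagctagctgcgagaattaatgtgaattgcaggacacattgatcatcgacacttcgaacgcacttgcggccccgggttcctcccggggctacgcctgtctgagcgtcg

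On the ribosomal DNA, SSRP1 and FLI1 peaks covered most of the stretch from MIR6724 past 5.8S, while H3K27ac peaks ended before MIR10396B and returned between the copies of the repeated stretch. The contig held 43 FLI1, 19 SSRP1 and 24 H3K27ac peaks, which covered 27.2%, 26.2% and 16.2% of its length. Counted per Mb, the peaks were 20.8 times (interval 15 to 28), 16.8 times (10.1 to 26.2) and 11.3 times (7.24 to 16.8) as dense as on chromosomes 1 to 22 and X. The stretch GL000220.1:101549-117830 was repeated at the end of the contig, at 145519-161802, with 99.92% identity, 3 mismatches and 10 gap columns. The other copy ended with the contig. Human cells carry many more ribosomal units than the stretches on this contig, and how reads from all of them bear on the number and width of these peaks was not tested.

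SSRP1 formed the widest peaks on any contig here. A peak of 12257 bp (108260-120516) ran from -3765 to 8491 bp relative to the start of the 5.8S match and so covered MIR10396B and 5.8S. In the other copy its counterpart was 9521 bp wide (152239-161759) and stopped just short of the contig's end. Just upstream lay peaks of 3838 bp (104139-107976, -7886 to -4049 relative to 5.8S) and 3757 bp (148202-151958), which covered MIR6724. The widest SSRP1 peak on chromosomes 1 to 22 and X was 8821 bp, below both of the widest on the ribosomal contig.

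FLI1 covered much of the same ground in several pieces: 79.0% of the bases under FLI1 on the contig were also under SSRP1. The peak of 3693 bp (104122-107814) and its counterpart of 3508 bp (148297-151804) covered MIR6724. Peaks of 3490 bp (109238-112727) in copy 1 and 2640 bp (154069-156708) in copy 2 covered the 5.8S match. A peak of 3307 bp (157109-160415) followed in copy 2, where copy 1 had peaks of 959 and 1887 bp. Both copies had a FLI1 gap over MIR10396B, of 1423 bp and 1399 bp, in which SSRP1 covered 80.1% and 79.99% of the bases. The widest FLI1 peak on the chromosomes was 2668 bp, narrower than all 5 of the widest on this contig.

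Within the copies, H3K27ac peaks lay in the first part. In copy 1 it had 6 peaks of 302 to 387 bp, and in copy 2 it had 4 of 341 to 448 bp. The peaks at 104771-105157 and 148667-149062 met MIR6724, and the last peaks before 5.8S ended at 106353 and 150887. From there to the next H3K27ac peak, 13343 bp of copy 1 and the adjoining sequence (106354-119696) held none, and SSRP1 covered 97.9% and FLI1 75.2% of that span. In copy 2 the same span ran 10915 bp to the contig's end, with 97.0% of it under SSRP1 and 78.9% under FLI1. No H3K27ac peak met the 5.8S match, and the nearest lay 5672 bp and 5110 bp away. The short peaks of one copy and those of the other did not coincide closely: 32.3% of the aligned bases that H3K27ac covered in either copy were covered in both, against 96.5% for SSRP1 and 87.4% for FLI1. Because the copies are 99.92% identical, short reads can match both, and the copies do not count as separate observations.

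**Figure D1:**
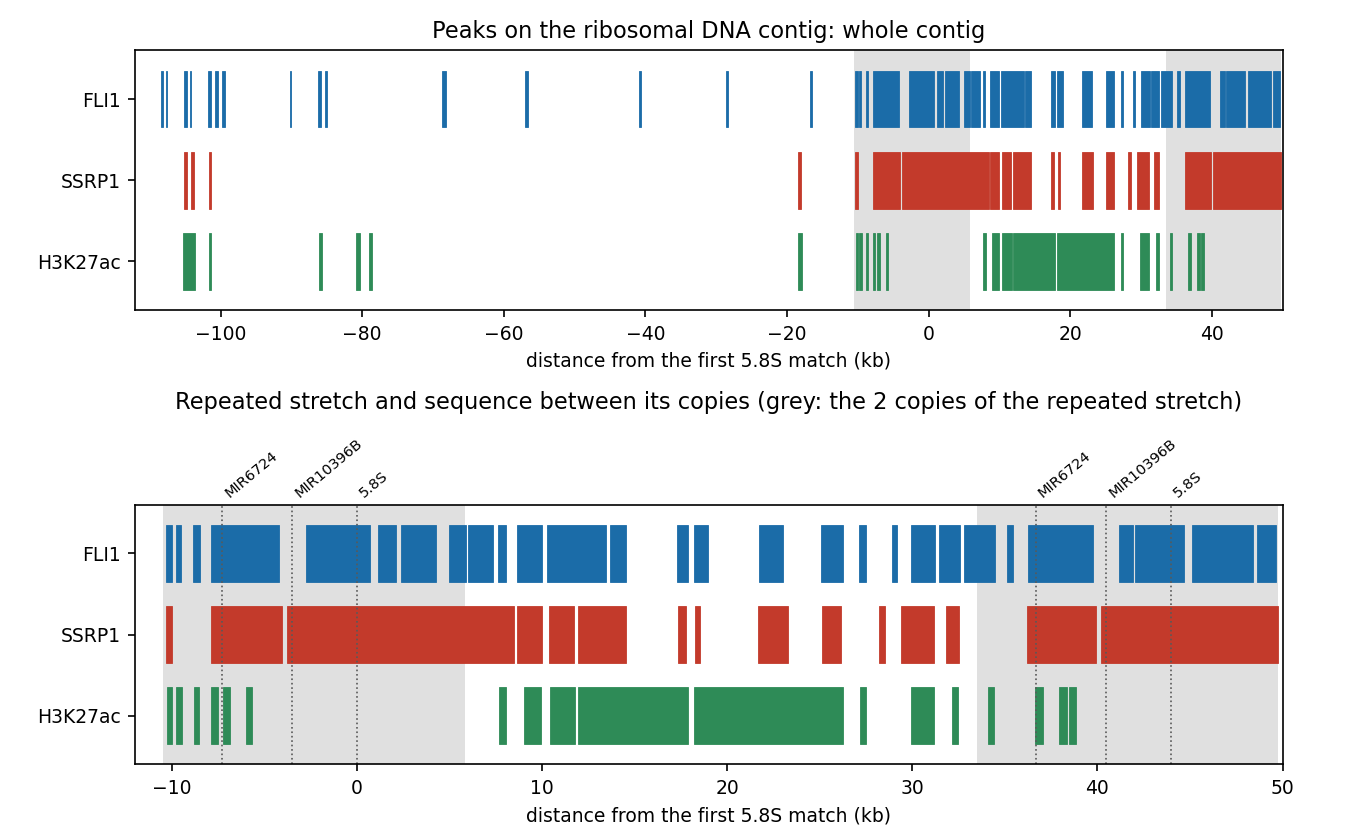
Peaks of the 3 lists on the ribosomal DNA contig, as bars against distance in kb from the first 5.8S match, for the whole contig (upper panel) and for the repeated stretch and the sequence between its copies (lower panel; dotted lines mark the matched anchors, grey the 2 copies). SSRP1 and FLI1 peaks lie around 5.8S, and the widest H3K27ac peaks, of 8049 and 5941 bp, lie between the copies.

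**Figure D2:**
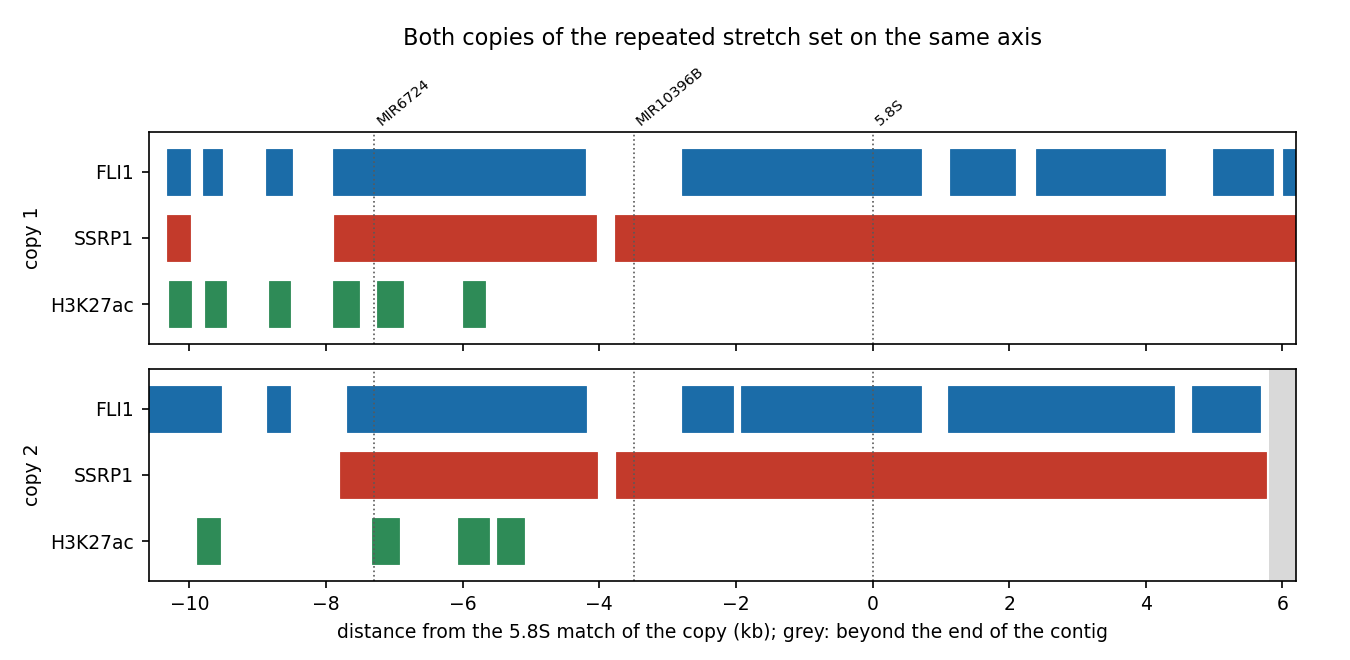
The 2 copies of the repeated stretch set on the same axis, in kb from the 5.8S match of each copy, with 1 row per list. SSRP1 covers both copies from upstream of MIR6724 to the end with 1 break, while H3K27ac peaks lie only upstream of MIR10396B, 6 in copy 1 and 4 in copy 2.

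In the stretch between the copies (117831-145518) H3K27ac covered more bases than either other list, and in copy 1 fewer. H3K27ac covered 67.3% of this stretch, FLI1 53.5% and SSRP1 51%, against 12.5%, 72.8% and 84.4% of copy 1. The H3K27ac peaks of 8049 bp (130215-138263) and 5941 bp (123949-129889) were the widest of that list on any contig, followed on this contig by peaks of 1709 bp (6637-8345), 1362 bp (122445-123806) and 1272 bp (141936-143207). Unlike for SSRP1 and FLI1, the widest H3K27ac peak on the chromosomes, of 25447 bp, was wider than any on this contig. Between the copies, 10 of 13 FLI1 peaks and 9 of 10 SSRP1 peaks met both other lists. Here and below, peaks of different lists meet, or are shared, where the overlap spans 20% or more of either peak. The widest of these were the FLI1 peak at 122266-125471 (3206 bp) and the SSRP1 peak at 123986-126544 (2559 bp), which overlapped each other and H3K27ac. The longest span between the copies without FLI1, 2766 bp (126558-129323), lay inside the H3K27ac peak of 5941 bp. The longest without SSRP1, 3101 bp (130574-133674), lay inside the one of 8049 bp, and FLI1 covered 14.1% of it. GC content was 67.9% in both copies, 52.4% between them and 41.2% in the first 101548 bp of the contig.

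The first 101548 bp, before the repeated stretch, looked unlike the rest of the contig. It held 15 FLI1 peaks of 227 to 520 bp, 11 of which met neither other list, 4 SSRP1 peaks and 6 H3K27ac peaks, and the lists covered 4.81%, 1.32% and 3.93% of it. All 3 lists met at 2 places there, the FLI1 peaks at 6803-7202 and 10170-10612. The first of them lay in the H3K27ac peak of 1709 bp. On the whole contig, 15 FLI1 peaks met both other lists: 2 before the repeated stretch, 2 in copy 1, 10 between the copies and 1 in copy 2. Their median width was 1145 bp, against 268 bp for the 13 FLI1 peaks that met neither. The 12257 bp SSRP1 peak counts as shared with H3K27ac only through its far end, where an H3K27ac peak of 396 bp began at 119697.

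A FLI1 peak of 1356 bp between the copies (120653-122008) held a run of 9 consecutive TTCC, the reverse complement of GGAA, and met SSRP1 (1316 bp) and H3K27ac (918 bp). Runs of at least 4 consecutive GGAA or TTCC, on either strand, were present in 4 FLI1 peaks on contigs, and in 3 of the 183 outside the ribosomal contig. The other 3 peaks were 262 bp on GL000206 (a contig of chromosome 17), 420 bp on GL000213 and 316 bp on GL000215, with runs of 14, 13 and 13. None of those 3 met SSRP1, and the one on GL000213 met H3K27ac. The peaks on GL000213 and GL000215 were near-copies of each other on opposite strands, 97.8% identical over 269 bp, so they do not count as independent sites. The runs are shown because they are the motif that EWS-FLI1 is known to bind; capitals mark each run of 4 or more, with the surrounding bases in lower case.
FLI1 peak on GL000206, GL000206.1:6766-6901: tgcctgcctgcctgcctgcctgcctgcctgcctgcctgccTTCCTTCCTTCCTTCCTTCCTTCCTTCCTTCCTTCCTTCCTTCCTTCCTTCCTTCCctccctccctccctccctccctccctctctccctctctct
FLI1 peak on GL000213, GL000213.1:90412-90543: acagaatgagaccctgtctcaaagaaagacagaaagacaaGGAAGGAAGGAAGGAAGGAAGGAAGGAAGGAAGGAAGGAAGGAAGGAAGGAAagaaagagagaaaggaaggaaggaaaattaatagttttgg
FLI1 peak on GL000215, GL000215.1:3244-3375: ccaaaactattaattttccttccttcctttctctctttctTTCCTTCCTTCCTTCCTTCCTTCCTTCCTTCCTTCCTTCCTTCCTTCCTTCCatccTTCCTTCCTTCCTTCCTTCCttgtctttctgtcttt
FLI1 peak on GL000220, GL000220.1:120958-121073: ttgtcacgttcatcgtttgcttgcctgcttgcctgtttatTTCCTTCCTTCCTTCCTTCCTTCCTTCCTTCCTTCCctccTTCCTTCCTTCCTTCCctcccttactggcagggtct

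Within 300 bp around the centre of the peak, such a run occurred in 1.64% of FLI1 peaks on the other contigs (interval 0.339 to 4.72), against 2.09% of FLI1 peaks on chromosomes and 0.156% of 6424 contig windows without a peak. The near-copies on GL000213 and GL000215 are among these peaks, and the interval counts each as separate. The letters CCGGAA or TTCCGG (both strands), which contain 1 GGAA and make the core of an ETS site, occurred in 10.4% of those FLI1 peaks (6.37 to 15.7), against 9.54% on chromosomes and 3.14% of the windows. The same letters stood in 16.2% of SSRP1 peaks (8.67 to 26.6) and 14.3% of H3K27ac peaks (5.94 to 27.2) on the other contigs, against 10.8% and 9.47% of those lists on chromosomes. A match is a run of letters and does not show binding. Median GC content of the 300 bp was 56.0% for FLI1, 55.8% for SSRP1 and 57.7% for H3K27ac peaks on the other contigs, against 41.0% for the windows.

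Beyond the ribosomal contig, FLI1 and SSRP1 peaks were denser on the contigs than on the chromosomes and H3K27ac peaks were sparser. Without GL000220, FLI1 had 30.8 peaks per Mb on contigs and 12.8 on chromosomes (ratio 2.40, interval 2.07 to 2.78). SSRP1 had 12.4 and 7.002 peaks per Mb (1.78, 1.39 to 2.23), and H3K27ac 8.24 and 13.1 (0.628, 0.464 to 0.830). These intervals count near-copies of a sequence, described below, and neighbouring peaks as independent, so they are likely too narrow. For SSRP1 the ratio was 3.07 on the 39 unplaced contigs and 0.821 (0.449 to 1.38) on the 20 contigs assigned to a chromosome. Of the 59 contigs, 38 had a peak, 13 had peaks of all 3 lists and 13 had FLI1 peaks alone. No contig had H3K27ac peaks alone. The 5 contigs with the most peaks, GL000220, GL000214, GL000224, GL000195 and GL000225, held 205 of the 392 (52.3%) in 0.873 Mb of 6.11 Mb.

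**Figure D3:**
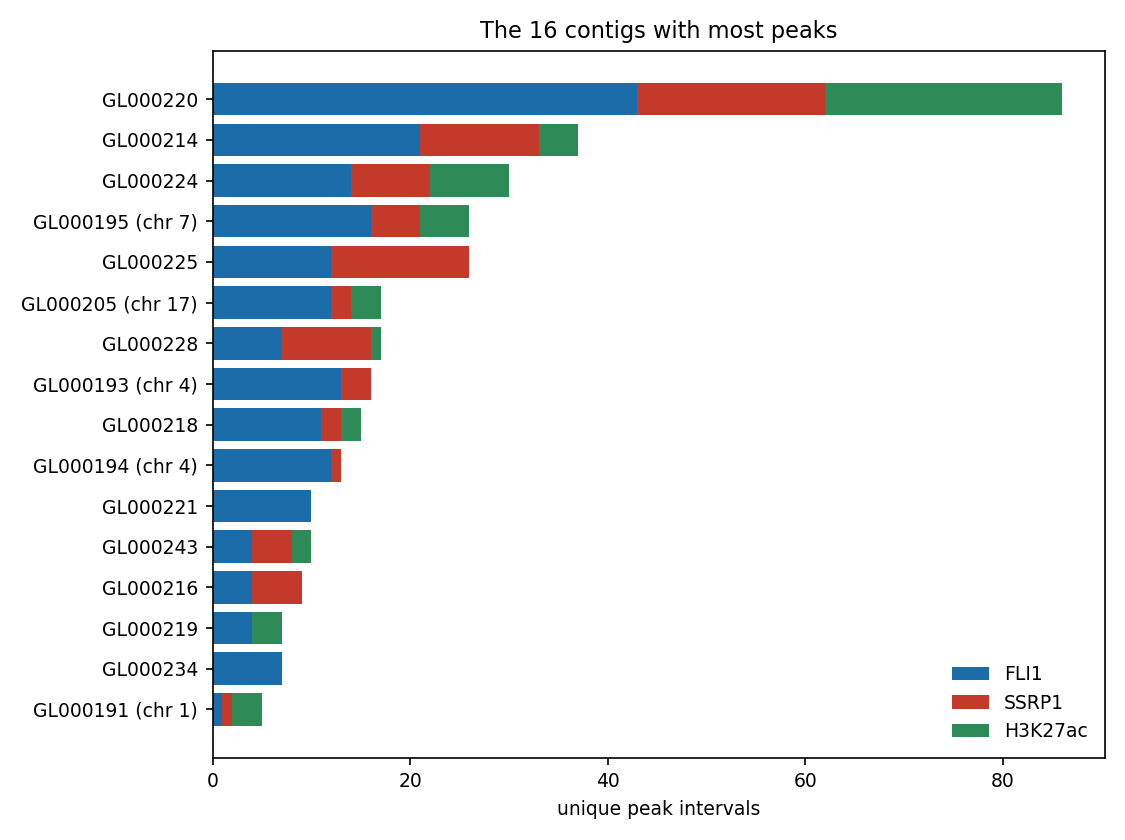
Unique peak intervals on the 16 contigs with the most peaks, stacked by list; a chromosome in brackets marks contigs assigned to it without a position. GL000220 held 86 peaks and GL000214, the next, 37, and 6 of the 16 (GL000225, GL000193, GL000194, GL000221, GL000216 and GL000234) had no H3K27ac peak.

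The contigs differed in which lists they carried. GL000214 had 21 FLI1, 12 SSRP1 and 4 H3K27ac peaks, and all 4 H3K27ac peaks met both other lists. On GL000224 there were 14, 8 and 8, where all 8 SSRP1 and all 8 H3K27ac peaks met FLI1. GL000195, a contig of chromosome 7, had 16, 5 and 5, and all 3 lists met at 2 FLI1 peaks. GL000225 had 12 FLI1 and 14 SSRP1 peaks, 5 of each shared, and no H3K27ac peak. GL000228 likewise had 7 FLI1 and 9 SSRP1 peaks against 1 of H3K27ac, which met neither.

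Many of these peaks were near-copies of each other, and a single family of them held most places outside the ribosomal contig where all 3 lists met. Pooled over the lists, the peaks formed 262 separate intervals, of which 104 (39.7%) had a partner among them of at least 90% identity over at least 80% of the shorter one. The partners include pairs between the copies of the repeated ribosomal stretch. No such share is given here for contig windows without a peak, so it is not known whether peaks differ from them in this. The largest family had 25 intervals on GL000214 (13), GL000224 (10) and GL000243 (2), with 27 FLI1, 21 SSRP1 and 13 H3K27ac peaks. In it, 19 of 27 FLI1 peaks met SSRP1 (70.4%, interval 49.8 to 86.2) and 14 met H3K27ac (51.9%, 31.9 to 71.3). Among the other 156 FLI1 peaks outside the ribosomal contig, 21 met SSRP1 (13.5%, 8.53 to 19.8) and 13 met H3K27ac (8.33%, 4.51 to 13.8). SSRP1 peaks met FLI1 in 20 of 21 cases in the family and in 21 of 53 outside it. The family was singled out after its peaks had been seen, so these shares are a description. Their intervals count near-copies as separate peaks, as do the other intervals for shares and for densities here.

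Of the 18 FLI1 peaks outside the ribosomal contig that met both other lists, 13 lay in this family. The widest were at GL000224.1:31-1528 (1498 bp, the widest FLI1 peak on the other contigs), GL000214.1:136134-137587 (1454 bp), GL000224.1:10908-12319 (1412 bp), GL000214.1:130988-132159 (1172 bp), GL000224.1:4014-5030 (1017 bp), GL000224.1:17857-18813 (957 bp), GL000224.1:5215-6060 (846 bp) and GL000243.1:20803-21567 (765 bp). The next widest, of 590 bp on GL000201 and 514 bp on GL000191, lay outside it, at genes described below. The widest SSRP1 peak off the ribosomal contig also belonged to the family, at GL000224.1:17867-19219 (1353 bp). The widest H3K27ac peak there did not: it lay on GL000205, a contig of chromosome 17, at 84053-88786 (4734 bp) and met 3 FLI1 and 2 SSRP1 peaks. A stretch of 120 bp that lay under all 3 lists on each contig is shown as an example of the family's sequence. It was picked for its high identity between the contigs, so it does not measure how much the copies differ. Linked intervals of the family were 92.5% to 100% identical. Capitals mark the only position at which the 3 lines differ, and the GL000243 line is the reverse strand.
GL000224.1:11973-12092: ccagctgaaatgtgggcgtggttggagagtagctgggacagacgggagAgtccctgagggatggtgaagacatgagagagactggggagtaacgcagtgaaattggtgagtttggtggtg
GL000214.1:118461-118580: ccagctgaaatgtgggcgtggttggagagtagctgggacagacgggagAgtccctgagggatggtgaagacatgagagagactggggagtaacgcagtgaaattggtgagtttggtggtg
GL000243.1:20320-20439: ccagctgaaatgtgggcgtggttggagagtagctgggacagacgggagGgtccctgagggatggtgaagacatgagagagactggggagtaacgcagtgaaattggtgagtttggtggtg

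The other families of 3 or more intervals differed in the lists they held. The next largest, 9 intervals on GL000225 and GL000228, held 9 FLI1 and 5 SSRP1 peaks and no H3K27ac peak. A family of 3 intervals on GL000195 and GL000205 had H3K27ac in all 3, with 2 FLI1 peaks and 1 SSRP1 peak. Families of 3 intervals also held FLI1 alone (on GL000218, GL000221 and GL000224) or SSRP1 alone (on GL000225, and on GL000216, GL000225 and GL000228). On GL000228, the hairpin of MIR8078 matched 14 times at a constant step of 3306 bp, and a transcript of DUX4, the homeobox gene of the D4Z4 macrosatellite, matched 14 times with 94.9% to 99.9% identity. The DUX4 match at 26362-27760, of 95.1% identity, lay before the hairpins. Within the step, FLI1 peaks began 1099, 1169 and 1179 bp after the hairpin, and a further one 2375 bp after it. SSRP1 peaks at 79984, 89969 and 103096 began 2378, 2445 and 2348 bp after it. The FLI1 peak at 70861-71087 covered the first hairpin. SSRP1 peaks at 116330 and 117071 began beyond the last hairpin and the last DUX4 match. Their GC content was 48.8% and 47.1%, against 78.8%, 77.1% and 75.7% for the SSRP1 peaks named before them. None of these peaks met H3K27ac. On GL000193, a contig of chromosome 4, 13 FLI1 peaks stood between 78511 and 91993 in a repeat whose 31-base words most often returned after 1409 bp, with 3 SSRP1 peaks, each shared with FLI1. Matches to the ribosomal DNA of GL000220 were found on 2 other contigs. On GL000229 there were 4 separate alignments, with 17643 aligned bp at 80.3% to 92.05% identity. The 2 FLI1, 1 SSRP1 and 1 H3K27ac peaks of that contig all met an alignment. On GL000231 there were 2 alignments, with 1975 aligned bp, and neither of the 2 FLI1 peaks there met them.

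Sharing between the lists on contigs departed from that on chromosomes in both directions. Over all contigs, SSRP1 peaks met FLI1 in 61.3% of cases, against 31.3% on chromosomes, a difference of 29.98 points (interval 19.8 to 39.3). H3K27ac peaks met FLI1 in 61.6%, against 24.1%, and met SSRP1 in 50.7%, against 25.7%. FLI1 peaks met SSRP1 in 28.3%, against 17.2%. In the other direction, SSRP1 peaks met H3K27ac in 43.0%, against 60.6% (-17.6 points, -27.2 to -7.46), and FLI1 peaks met it in 21.2%, against 28.4% (-7.14 points, -12 to -1.33).

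The ribosomal contig and the rest of the contigs differed in this. On the ribosomal contig 84.2% of SSRP1 peaks met FLI1 (interval 60.4 to 96.6) and 89.5% met H3K27ac (66.9 to 98.7). On the other contigs 55.4% met FLI1 (43.4 to 67.0) and 31.1% met H3K27ac (20.8 to 42.9). The share with H3K27ac was 29.6 points below that on chromosomes. FLI1 peaks of the other contigs met SSRP1 in 21.9%, within 4.63 points of the chromosomes (-0.758 to 11.2), and met H3K27ac in 14.8%. Of the 74 SSRP1 peaks there, 24 met FLI1 and not H3K27ac (32.4%, 22 to 44.3), against 6.34% on chromosomes.

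**Figure D4:**
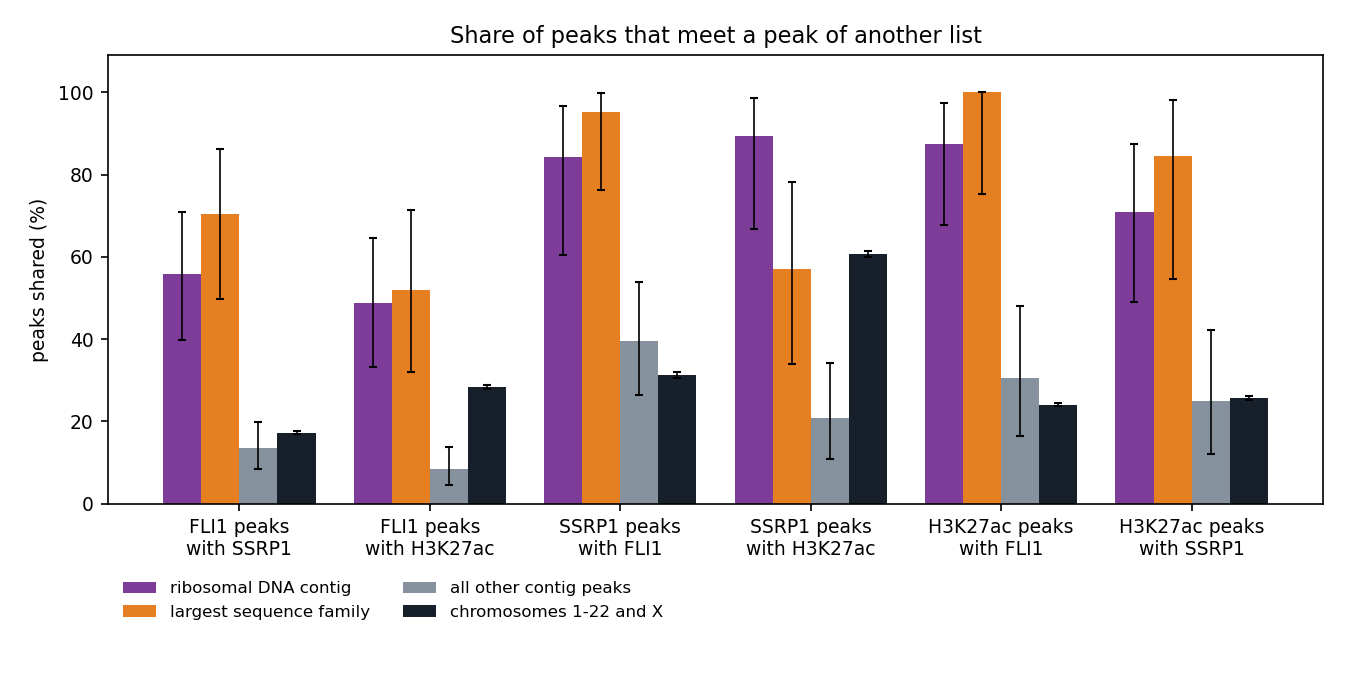
Share of peaks (%) of 1 list that met a peak of another, with 95% Clopper-Pearson intervals, for the ribosomal DNA contig, the largest sequence family, all other contig peaks and chromosomes 1 to 22 and X. The share of SSRP1 with H3K27ac outside both was 20.8%, against 60.6% on chromosomes.

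With chromosomal peaks weighted to the widths of the contig peaks, an alternative chosen after seeing the data, chromosomal SSRP1 peaks met H3K27ac in 59.6% of cases and FLI1 peaks met it in 32.7%. These stayed above the 31.1% and 14.8% on the other contigs. FLI1 peaks met SSRP1 in 21.9% of cases on the other contigs and, so weighted, in 21.3% on chromosomes. Median widths on the other contigs were 315 bp for FLI1, 353 bp for SSRP1 and 531 bp for H3K27ac, against 283, 403 and 653 bp on chromosomes. Of H3K27ac peaks on the other contigs, 28.6% (interval 16.6 to 43.3) had a neighbour of their list within 2 kb, against 64.3% on chromosomes. FLI1 peaks had one in 44.3% (36.9 to 51.8), against 21.3%, and SSRP1 peaks in 50% (38.1 to 61.9), against 41.2%. This share also depends on the density of the peaks and on the ends of short contigs, which were not corrected for.

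How far a read could tell these places apart was measured by 31-base words that occur once in the assembly. A median of 18.1% of the words in a FLI1 peak, 11% in an SSRP1 peak and 0.736% in an H3K27ac peak on the other contigs were unique, against 99.5%, 100% and 100% on chromosomes. On the ribosomal contig the medians were 42.3%, 81.7% and 57.4%. Among peaks with under 50% unique words, SSRP1 peaks met H3K27ac in 33.3% of cases on the other contigs (21.4 to 47.1), against 36.6% on chromosomes (34.3 to 38.9). Such FLI1 peaks met H3K27ac in 15.8% (10.0 to 23.1), against 7.72%, and met SSRP1 in 22.6% (15.8 to 30.6), against 5.26%. All 27 FLI1 peaks of the largest sequence family were in this class. They gave 14 of the 21 FLI1 peaks of the class that met H3K27ac and 19 of the 30 that met SSRP1. Among peaks with 50% or more unique words, SSRP1 peaks met H3K27ac in 23.5% of cases on the other contigs (4 of 17, 6.81 to 49.9), against 62.8% on chromosomes. Such FLI1 peaks met H3K27ac in 12% (6 of 50, 4.53 to 24.3), against 36.6%. They met SSRP1 in 20% (10 of 50, 10.03 to 33.7), against 21.98%, so this share exceeded that on chromosomes only under 50% unique words. SSRP1 peaks met FLI1 more often than on chromosomes in both classes. Under 50% unique words the share was 54.4% (40.7 to 67.6), against 32.8%. With 50% or more it was 58.8% (10 of 17, 32.9 to 81.6), against 31.2%. H3K27ac peaks likewise met FLI1 in 46.5% (31.2 to 62.3), against 15.3%, and 66.7% (4 of 6, 22.3 to 95.7), against 24.9%. How the aligner's placement of such reads bears on the contig peaks was not tested.

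Many contig peaks had a near-copy on a chromosome, and the copy was often a peak of the same list. A copy of at least 95% identity over at least 80% of the peak was present on chromosomes 1 to 22 or X for 104 of the 183 FLI1 peaks on the other contigs (56.8%). The same held for 46 of 74 in the SSRP1 list (62.2%) and 38 of 49 in the H3K27ac list (77.6%), against 1439 of 1971 contig windows of 300 bp without a peak (73.0%). Among these, a copy met a peak of the same list for 52 FLI1 (50.0%, interval 40.03 to 59.97), 35 SSRP1 (76.1%, 61.2 to 87.4) and 32 H3K27ac peaks (84.2%, 68.7 to 94.0). The copies of those windows met the lists in 4.17%, 1.95% and 2.08% of cases. For peaks with exactly 1 copy, the counts were 3 of 27 FLI1 (11.1%, 2.35 to 29.2), 7 of 15 SSRP1 (46.7%, 21.3 to 73.4) and 14 of 18 H3K27ac peaks (77.8%, 52.4 to 93.6), against under 1% of 558 windows with 1 copy for every list. On the ribosomal contig 2 FLI1 peaks had a copy and no SSRP1 or H3K27ac peak did.

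**Figure D5:**
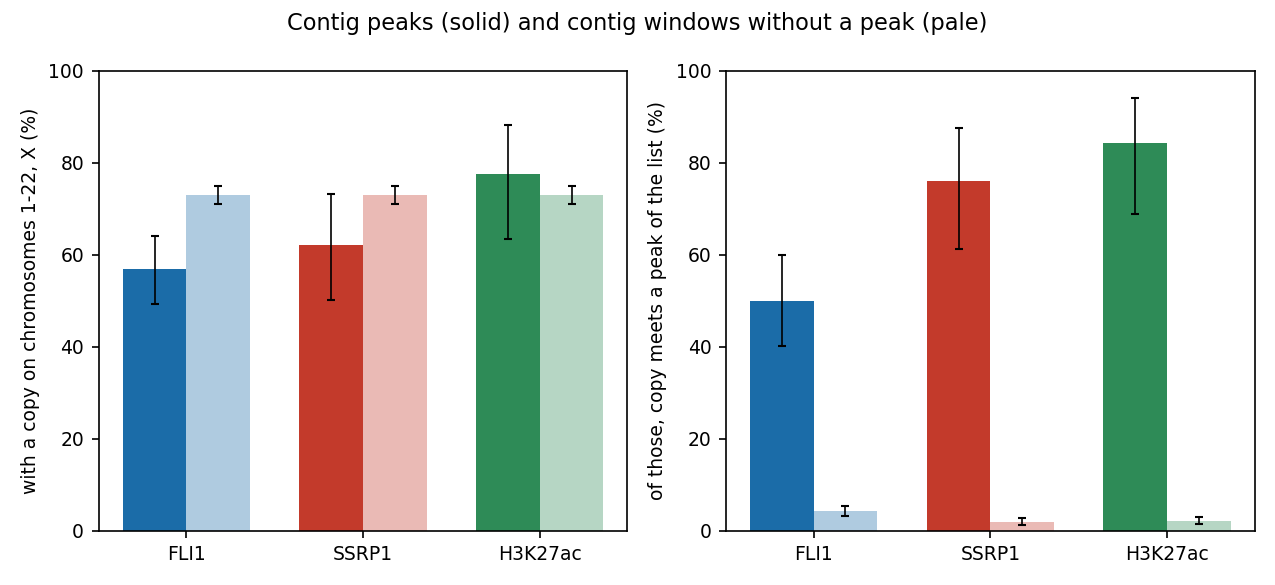
Left, the share (%) of peaks on contigs other than GL000220 with a near-copy on chromosomes 1 to 22 or X, and right, the share of those whose copy met a peak of the same list, with 95% Clopper-Pearson intervals; pale bars are contig windows of 300 bp without a peak, over all contigs. The copies met a peak of the list for 50.0% of FLI1, 76.1% of SSRP1 and 84.2% of H3K27ac peaks, against at most 4.17% of windows.

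Genes were named through these copies, since the contigs themselves carried no annotation here. A protein-coding transcription start site lay within 2.5 kb of the best copy for 10 of 38 H3K27ac peaks (26.3%), 4 of 46 SSRP1 peaks and 2 of 106 FLI1 peaks. No such share is given here for chromosomal peaks of the lists or for windows without a peak. These counts therefore do not show whether the copies lie near start sites more or less often than usual. On GL000201, where the peaks matched chromosome 9 with 100% identity, all 3 lists met at FAM163B, with a FLI1 peak of 590 bp, an SSRP1 peak of 701 bp and an H3K27ac peak of 938 bp. All 3 also met at the chromosomal copy, and 2 further H3K27ac peaks of the contig lay in the copy of ADAMTSL2. On GL000191 all 3 met at PNRC2, which encodes a nuclear receptor coactivator: the FLI1 peak was 514 bp, the SSRP1 peak 1009 bp and the H3K27ac peak 2452 bp. The copy of the H3K27ac peak on chromosome 1 (24284958 to 24287409), 99.7% identical, met H3K27ac, but the chromosomal copy met neither FLI1 nor SSRP1. At SRSF10, a splicing factor gene, GL000191 had an H3K27ac peak of 2232 bp, whose copy met H3K27ac and SSRP1.

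The peaks of GL000223 matched chromosome 12, at a group of zinc finger genes, with 100% identity. Its 4 H3K27ac peaks lay at ZNF140 (1445 bp), ZNF84 (888 bp), ZNF26 (498 bp) and a place where CHFR, a mitotic checkpoint gene, and ZNF605 overlap (757 bp). Each copy was also an H3K27ac peak, and the 1 SSRP1 peak of the contig, 317 bp, lay at ZNF140, where the copy met no SSRP1 peak. GL000192 had an H3K27ac peak of 721 bp at NBPF15, whose copy met all 3 lists. Single FLI1 peaks without a counterpart at the copy lay in copies of FANK1 (284 bp, GL000216) and ZNF717 (227 bp, GL000222). Another, on the ribosomal contig, lay in a copy of ROBO2, an axon guidance receptor (227 bp). The sequence words counted above occurred in the assembly a median of 502 times for the ZNF717 peak. The median was 19 for the ROBO2 peak and 2 for the FANK1 peak. Each gene is that of the best copy, so ZNF717 and ROBO2 are not shown to be the only counterparts.

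The peaks of GL000197, a contig of chromosome 8, matched GFRA2, which encodes a receptor for neurturin, with 100% identity. It carried an SSRP1 peak of 809 bp and H3K27ac peaks of 405 and 2101 bp but no FLI1 peak, and the copies of the SSRP1 and both H3K27ac peaks met peaks of their own list.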

How the data were processed

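SK-N-MC chromatin was digested with micrococcal nuclease and sonicated, per the series' design text, and 1 library each was made for FLI1, SSRP1, H3K27ac and input. Bowtie2 placed the reads on hg19, and MACS2 (2.2.7.1 in the submitters' processing notes) called peaks over input at q 0.05, by the authors' account there. The sources used here do not give how duplicate or multiply mapped reads were treated.

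The 3 deposited lists were used as the authors deposited them, called per library. Each holds positions and names and no score, so no peak strength was used. Lines that repeat an interval for several summits were counted once: 303 FLI1, 154 SSRP1 and 116 H3K27ac contig lines became 226, 93 and 73 peaks. Groups were taken from sample titles. Contig names and lengths fitted GRCh37; coordinates are 1-based hg19. The input library's own file was not analysed here. The depth of the libraries is unknown from these files.

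Densities used length without N bases, with exact conditional Poisson intervals for ratios; shares carry Clopper-Pearson intervals and differences Newcombe intervals. Copies were found with BLAST+ 2.17.0. The ribosomal unit was located by matching GENCODE 5.8S transcripts and RefSeq hairpins; RefSeq's gene table, of GRCh38, was used for names and order alone. Regions named were the 5 widest peaks of each list on the ribosomal contig, peaks at its anchors, the 5 contigs with most peaks, the widest peak of each list elsewhere, the 10 widest FLI1 peaks that met both other lists, FLI1 peaks with at least 4 consecutive GGAA, and genes met by a copy. The sequence families were singled out after their peaks had been seen. The overlap function was tested on 5000 simulated intervals, where a planted share of 30.0% was recovered as 30.0%. Computations used samtools 1.23.1, pysam 0.24.0, numba 0.67.0, scipy 1.17.1, pandas 2.3.3 and numpy 2.4.6 under Python 3.11.15. Alternatives were other overlap minima, contig subsets, every deposited line, wider peaks, joined peaks and autosomes. The members and lists were chosen with earlier results of these data known.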

Additional observations from a re-analysis of the deposited data

How the results depend on the processing

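No paired analysis was possible because each target had 1 library and the labels give no replicate numbers; leaving out a replicate was likewise not possible. Under the alternatives, 46 values moved by less than their counting interval or, for counts, by less than 1.5 times, 25 moved by more, and 1 ratio whose reported interval lay above 1 came out below 1. The density ratio of contigs over chromosomes turned round for SSRP1, to 0.821 on contigs assigned to a chromosome, and was 3.07 on unplaced contigs and 3.12 with every deposited line. For FLI1 it was 2.40 without the ribosomal contig, 3.40 on unplaced and 2.12 on assigned contigs, 3.70 with every line and 3.67 among peaks at or above the median width. For H3K27ac, where the interval of the reported 0.911 spanned 1 (0.714 to 1.15), it was 1.12 on unplaced contigs, also across 1, 0.628 without the ribosomal contig, 0.595 on assigned contigs and 0.698 among wider peaks.

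Without the ribosomal contig, 21.9% of FLI1 peaks met SSRP1, 14.8% of FLI1 and 31.1% of SSRP1 peaks met H3K27ac, and 49.0% of H3K27ac peaks met FLI1. When 20% of both peaks had to be covered, 14.6% of FLI1 and 30.1% of SSRP1 peaks met H3K27ac, 49.3% of H3K27ac peaks met FLI1 and 38.4% met SSRP1. Among wider peaks, 15.3% of FLI1 peaks met H3K27ac and 75% of SSRP1 peaks met FLI1. On the ribosomal contig every line gave 96 FLI1, 69 SSRP1 and 46 H3K27ac summits, and wider peaks alone gave 12 for SSRP1 and 6 for H3K27ac. The cause of these shifts was not tested beyond what each setting leaves out. With 1 library per target and no read counts or peak scores, neither the spread between libraries nor the strength of a peak was measurable.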
